A study of Mus musculus with 4 samples.

Results

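The circular RNAs (circRNAs) of 10 genes of the β-catenin pathway were examined in primary mouse articular chondrocytes, the cartilage cells of joints. A circRNA is a closed loop formed by back-splicing, in which the end of an exon is joined to the start of an exon that lies upstream of it, and it was measured by the reads that cross that junction. A circRNA was counted for Ctnnb1, Apc, Axin1, Gsk3b, Tnks, Tnks2, Tcf7l2, Tcf4, Csnk1a1 or Csnk1g3 when both ends of its junction lay inside the gene's RefSeq span, with a tolerance of 1 bp. This gave 125 of the 40909 circRNAs of the series (0.306%) and 8782 junction reads, or 0.205% of all. The study asked how the inflammatory cytokine interleukin-1β (IL-1β), which is given to cultured chondrocytes as a model of osteoarthritis, alters circRNAs. There were 2 libraries of cells given 10 ng/ml recombinant human IL-1β for 24 h and 2 control libraries, named IL-1β 1, IL-1β 2, control 1 and control 2 here. All cells were early-passage cultures that had been thawed and plated in serum-containing medium. No strain or age is named in the labels. Nor do they state that the replicate libraries represent different cultures or animals, and p-values therefore cover no more than the spread of these libraries, which may be technical.

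β-catenin, the product of Ctnnb1, links cadherins to the cytoskeleton and carries the canonical Wnt signal to the nucleus. Without a Wnt signal, the scaffolds Axin and Apc hold β-catenin while casein kinase 1α (Csnk1a1) and GSK-3β (Gsk3b) phosphorylate it, which marks it for degradation. Tankyrases (Tnks, Tnks2) add poly-ADP-ribose to Axin and so promote its loss, and casein kinase 1γ (Csnk1g3) phosphorylates the Wnt co-receptor Lrp6 at the membrane. Stabilised β-catenin binds TCF/LEF factors such as the product of Tcf7l2. In cartilage the pathway is known for its part in chondrocyte maturation and in joint disease. The mouse gene symbol Tcf4 names a different factor, the E protein TCF4 (E2-2), a basic helix-loop-helix factor. The protein of Tcf7l2 was long called TCF-4 too. Tcf4 is therefore given here as a gene of the list and not as a β-catenin partner.

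The libraries held 895774 to 1203855 junction reads. Since linear RNA was digested before sequencing, a gene without junction reads may still have been expressed. Of 11 chondrocyte marker genes, Sox5, Sox6 and Hapln1 had junction reads (summed to 401 and 230 counts per 1000000 junction reads, CPM, in the controls and 271 and 323 with IL-1β), while Sox9, Col2a1, Acan and 5 others had 0 in every library. Of 7 fibroblast genes 6 had reads, and the summed level of that list was 314 and 423 CPM in the controls and 261 and 195 CPM with IL-1β. Of 4 osteoblast genes Runx2 had reads, at 267 and 424 CPM in the controls and 375 and 367 CPM with IL-1β. The 4 blood cell genes had 0 reads, and of 5 endothelial genes only Flt1 (114 to 140 reads per library) and Pecam1 (8 reads in IL-1β 1) had any. In such bulk samples fewer cells of a type and less RNA per cell cannot be told apart, and the part of other cell types in the values below was not tested.

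The number of circles differed widely between the genes. Tnks2 gave 28 circRNAs, Gsk3b 22, Tcf4 16, Apc 15, Tnks 13, Ctnnb1 12 and Axin1 11. Csnk1a1 and Csnk1g3 gave 3 each and Tcf7l2 gave 2. All circles of a gene lay on 1 strand, none lay inside a further gene, and no pair had both ends within 5 nt of each other. Most were rare. Of the 125, 68 (54.4%) were read in 1 library only, against 58.6% of all circRNAs, and 23 (18.4%) were read in all 4, against 16.8%. Those 23 carried 78.7% of the reads. Junction ends lay 825 to 217406 bp apart, with a median of 11139 bp, against 10570 bp over all circRNAs. These shares and distances are descriptions and lie near those of the whole table.

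The genes fell into distinct layouts. In Ctnnb1 (chromosome 9, 120933400 to 120960507, mm10) 1 circle, circRNA.38734 (120950173 to 120959529, 9357 bp), held 1156 of 1260 reads (91.7%). Its 5′ end was used by 6 of the 12 circles and 97.1% of the reads, and its 3′ end by 5 circles and 93.7%. In Tcf4 (chromosome 18, 69343429 to 69687967) reads were also concentrated, since 93.2% came from 3 circles with the same 5′ end, 290148 bp into a gene of 344539 bp. There circRNA.15683 (69633577 to 69643015) had 1468 reads and circRNA.15684 (69633577 to 69657950) had 529. Tcf7l2 (chromosome 19, 55741797 to 55933659) gave nearly all its reads to circRNA.17208 (55908423 to 55912645), 187 of 194.

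By contrast Gsk3b (chromosome 16, 38089001 to 38246084) spread 1665 reads over a lattice of shared ends. The largest circle by reads, circRNA.12080 (38170664 to 38193994), held 23.8%. A 3′ end at 38193994 served 6 circles and 51.5% of the reads, one at 38208090 served 4 circles and 366 reads, and one at 38228776 served 7 circles and 21.5%. Tnks2 (chromosome 19, 36834129 to 36893477) had 1991 reads, of which circRNA.16574 (36862086 to 36871758) held 36.2%. The 5′ end of that circle served 5 circles and 48.8% of the gene's reads. The junction ends were not matched to exons, so exon or intron is not stated.

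**Figure D1:**
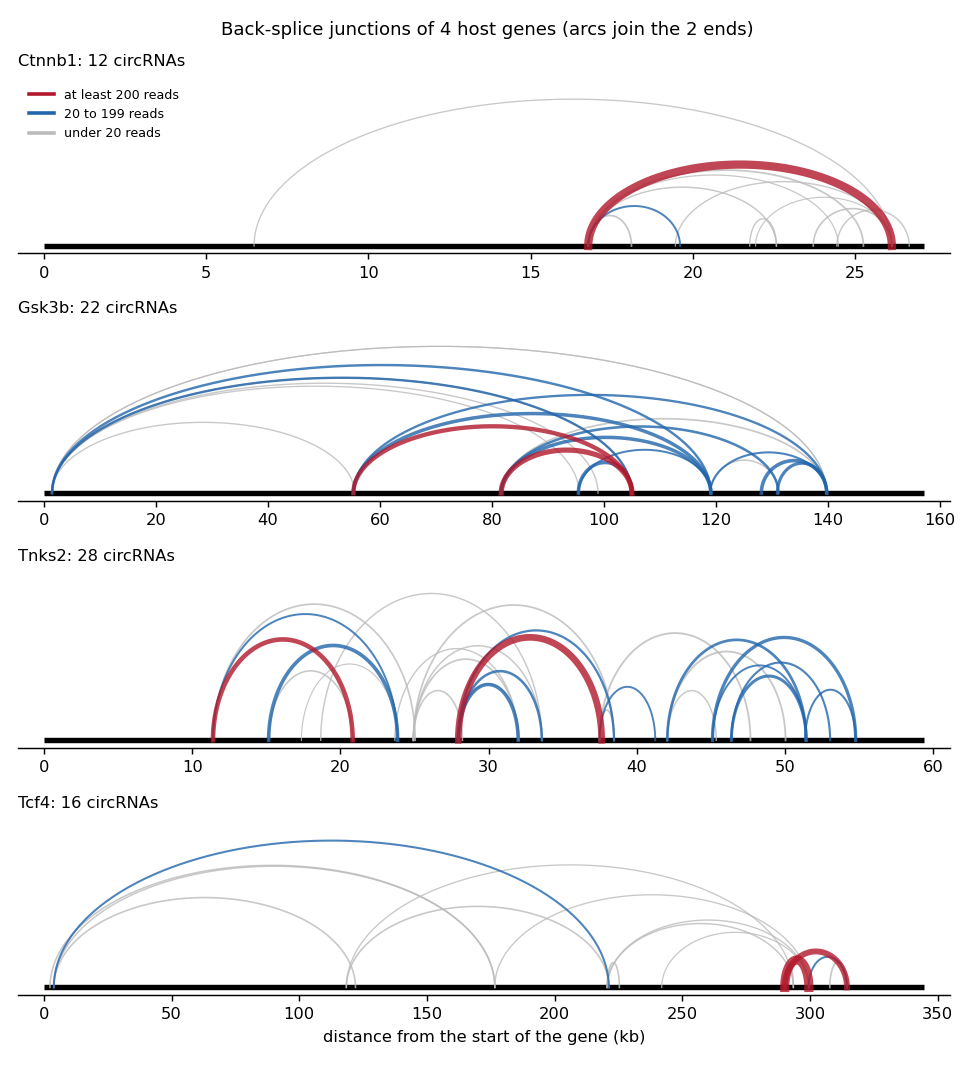
Back-splice junctions of Ctnnb1, Gsk3b, Tnks2 and Tcf4 as arcs over the gene (black bar), by distance from the start of the gene in kb; the arc's width grows with the square root of its reads over the 4 libraries, its height has no unit, and its colour gives the class of reads. Ctnnb1 shows 1 dominant arc, Tcf4 shows 2 that start at the same end, and Gsk3b and Tnks2 show many arcs with common ends.

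Levels are given as the gene's summed junction reads in CPM, scaled with edgeR's TMM factors. For genes the total was the reads assigned to a host, and for circles and junction ends it was all junction reads. The TMM factors differed too, so the CPM of a gene and of its circles are on slightly different scales. A junction read crosses a single point of the RNA, so the values were not divided by length. The order from high to low was Tcf4, Tnks2, Gsk3b, Ctnnb1, Axin1, Apc, Tnks, Tcf7l2, Csnk1g3 and Csnk1a1, with means over the 4 libraries from 512 down to 8.36 CPM. Each gene's range over the libraries overlapped that of the next in the order, so no neighbours were separated beyond their spread. The leading 4 lay above 86.5% to 92.0% of all tested host genes. Tcf4 was the steadiest, with a highest library 1.14 times its lowest, and Axin1 the least steady of the genes read in every library, at 2.75 times.

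**Figure D2:**
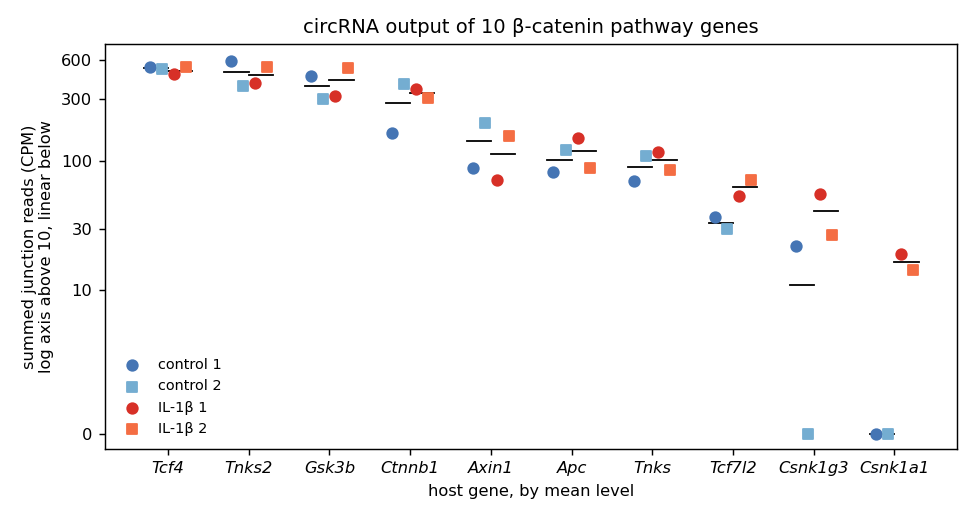
Summed junction reads of each gene in CPM for the 4 libraries (points) with the mean of each group (black bars); the axis is logarithmic above 10 CPM and linear below. Libraries of the groups intermix for 7 genes, and both IL-1β libraries lie above both controls for Tcf7l2, Csnk1g3 and Csnk1a1.

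The comparison of IL-1β with control asked whether the circRNA output of these genes differed. By the quasi-likelihood test of edgeR with Benjamini-Hochberg adjustment over all hosts, 0 of the 10 genes were called at 0.05, and the share called over all 4879 tested hosts was 0.0%. Without adjustment 0 of 10 had a p under 0.05, against 4.55% of all hosts. DESeq2 called 0 of the 9 genes to which it gave an adjusted p, and 55 of all hosts (1.13%). It gave an adjusted p to 3838 of the 4879 hosts. Its unadjusted p was under 0.05 for 1 of the 10, against 10.8% of all hosts. The log2 change was above 0 for 7 of the 10, with a median of 0.20, against 48.0% of all hosts and a median of -0.03. For 3 genes, Tcf7l2, Csnk1g3 and Csnk1a1, both IL-1β libraries lay above both controls, and 17.0% of all hosts had that pattern. These were the 3 genes with the fewest reads. Csnk1g3 had 26 reads in control 1 and 26 in IL-1β 2, so the order of these libraries rests on the scaling. It turned under the SRPBM depth. Csnk1a1 had enough reads for the test through IL-1β alone. For 0 genes both lay below, a pattern seen in 18.9% of all hosts, and 0 were read in both controls alone, against 2.23% of all hosts. Scaling by the depth behind the authors' SRPBM values moved the median of all hosts to -0.24, the hosts above 0 to 35.8% and the members above 0 to 6 of 10, so log2 changes are relative to the bulk of hosts.

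The 10 genes together held 0.199% and 0.195% of the junction reads in the controls and 0.202% and 0.229% with IL-1β. The means were 0.197% ± 0.00315 and 0.216% ± 0.0197 (SD, n = 2 each). Both IL-1β libraries lay above both controls, by little in IL-1β 1. An exact permutation test over the libraries (two-sided) gave p = 0.333, which is the smallest p that 2 against 2 libraries can give.

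Among single circles, 51 of the 125 had the 20 reads over the libraries needed for a test. By the edgeR test 0 of these were called at an adjusted p under 0.05, and over the 15333 tested circRNAs the share called was 0.0196%. Unadjusted, a p under 0.05 was found for 1, circRNA.16571 of Tnks2, or 1.96% of the 51 against 3.44% of all. In DESeq2 it was found for 5 of the 51, against 8.99% of all. That tool called 0 of the 31 circles to which it gave an adjusted p, and 106 of all circRNAs (0.691%). It gave an adjusted p to 8793 of the 15333 circRNAs. The log2 change was above 0 for 32 of the 51 with a median of 0.27, against 48.3% of all tested circRNAs and a median of -0.05. Without IL-1β 2 it was above 0 for 16 of 42 with a median of -0.29, and of the 8 circles with at least 200 reads it was above 0 for 3. Under the SRPBM depth it was above 0 for 27 of the 51, against 39.2% of all. Both IL-1β libraries lay above both controls for 10 circles (19.6%; 16.4% of all) and below for 6 (11.8%; 17.2% of all). Where groups did not overlap, the members' shares were near the background. The share above 0 was larger than over all circRNAs, but circles of 1 gene are not independent of each other. Of the circles above 0, 3 were read in both IL-1β libraries and neither control, and others in IL-1β 2 alone. All of these reached 20 reads through IL-1β only, while circRNA.15685 and circRNA.37108 did so through the controls only.

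**Figure D3:**
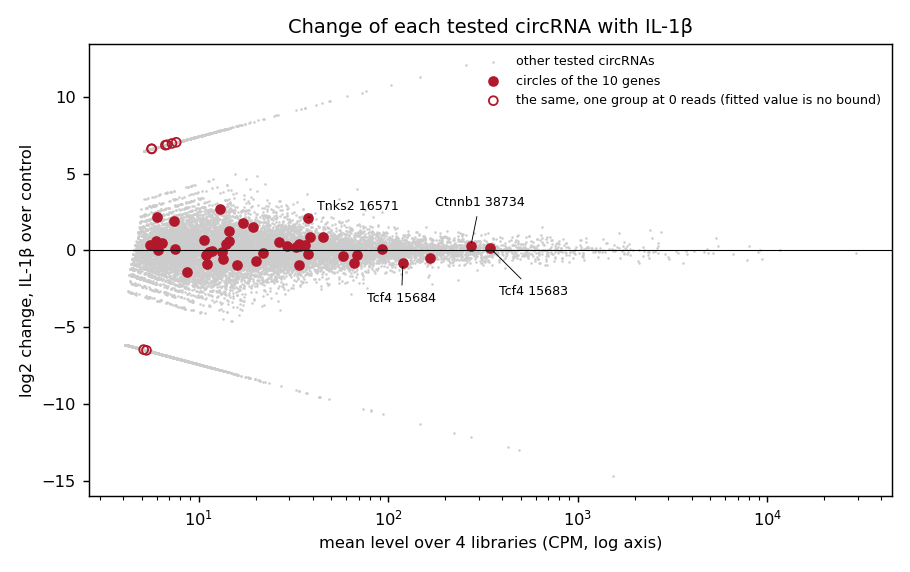
Log2 change with IL-1β of each tested circRNA against its mean level in CPM (log axis), with the 51 tested circles of the 10 genes in red and all others in grey; open red circles had 0 reads in a whole group. The red points lie within the grey cloud, and the most read ones, circRNA.38734 and circRNA.15683, lie near 0.

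Ctnnb1, the β-catenin gene, gave 163 and 396 CPM in the controls and 359 and 305 CPM with IL-1β. Both IL-1β values lay between the controls, which differed 2.42-fold from each other. The IL-1β mean was 332 ± 38.3 CPM and the control mean 279 ± 164 CPM (SD, n = 2 each), a log2 change of 0.25 ± 0.40 (SE; adjusted p = 1.00 in edgeR). Without control 1 the log2 change was -0.21. Its main circle circRNA.38734 had 175 and 421 reads in the controls and 308 and 252 with IL-1β, so the gene's total largely repeats this circle. The next circle, circRNA.38730, had 24 reads in all.

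The scaffolds of the destruction complex, Apc and Axin1, had lower mean output than Ctnnb1. The highest library was 1.84 times the lowest for Apc and 2.75 times for Axin1, against 2.42 times for Ctnnb1. Apc (chromosome 18, 34220297 to 34322190) gave 82.0 and 121 CPM in the controls and 151 and 87.9 CPM with IL-1β, and the groups overlapped. Its log2 change was 0.23 ± 0.44 and turned to -0.21 without IL-1β 1. The most read circle, circRNA.15065 (34261005 to 34279352), had 38 and 34 reads in the controls, 63 in IL-1β 1 and 0 in IL-1β 2. Of its 85 Apc reads, IL-1β 2 still had 21 at the 5′ end of this circle and 15 at its 3′ end, each joined elsewhere. At the 5′ end at 34289838 it had 49. The counts there were 3 of 96 in control 1, 49 of 138 in control 2 and 16 of 135 in IL-1β 1. The libraries of a group therefore differed from each other in which Apc circles they held.

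Axin1 (chromosome 17, 26131217 to 26195811) gave 88.9 and 196 CPM in the controls and 71.4 and 156 CPM with IL-1β. The controls differed 2.21-fold from each other and the IL-1β libraries 2.19-fold. The log2 change was -0.32 ± 0.52, and it was 0.36 without control 2 and 0.13 without IL-1β 1. The main circle circRNA.12919 spans only 959 bp (26142618 to 26143576) and had 51 and 131 reads in the controls and 45 and 71 with IL-1β. A longer circle with the same 3′ end, circRNA.12917, had 0 and 60 reads in the controls and 12 and 17 with IL-1β.

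Of the kinases, Gsk3b had the highest output, with 453 and 302 CPM in the controls and 318 and 522 CPM with IL-1β. The groups overlapped, with the lowest value in a control and the highest in an IL-1β library. The log2 change was 0.15 ± 0.32. It was -0.11 without control 2, -0.25 without IL-1β 2 and -0.11 under the SRPBM depth. Of its 13 tested circles 10 had a log2 change above 0 and 3 below. The main circle circRNA.12080 had 124 and 92 reads in the controls and 77 and 104 with IL-1β. The next, circRNA.12076 (38144260 to 38193994), stood at 66.8 and 63.0 CPM in the controls and 47.3 and 53.3 CPM with IL-1β, both below the controls, with a log2 change of -0.37 ± 0.46 (adjusted p = 1.00 in edgeR).

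Csnk1a1 and Csnk1g3 had the fewest reads of the 10 genes, and Csnk1a1 was close to the limit of detection. Csnk1a1 (chromosome 18, 61554236 to 61590320), which encodes the kinase that primes β-catenin for GSK-3β, had 0 reads in both controls and 17 and 14 with IL-1β. This is at least 6.44-fold higher against a floor of 3 reads per library, which is 2.56 and 2.63 CPM in the controls. Such bounds divide the observed mean by a fixed floor and leave out the counting error of that mean. The intervals given later cover counting error alone. As PCR copies are not independent molecules, the error may be larger than these values show. The adjusted p was 0.882 in edgeR, and 1.33% of all tested hosts were likewise read in both IL-1β libraries and neither control. None of the 3 Csnk1a1 circles reached 20 reads, and circRNA.15516, with 13 reads, was read in IL-1β 1 alone. The circle circRNA.15517 was read in both IL-1β libraries, with 4 and 9 reads, and circRNA.15515 in IL-1β 2 alone, with 5. The 2 libraries therefore shared 1 circle, and their remaining reads of the gene came from different circles.

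Csnk1g3 (chromosome 18, 53862082 to 53955684) had 26 and 0 reads in the controls and 50 and 26 with IL-1β. Its levels were 22.2 and 0 CPM against 55.8 and 26.9 CPM, so IL-1β 2 lay only a little above control 1. Under the SRPBM depth IL-1β 2 lay below control 1. The log2 change was 1.88 ± 1.53 (adjusted p = 0.979 in edgeR), and with 1 library left out it was 0.89 to 8.40. All 3 circles started at the same 5′ end (53895531). The main circle circRNA.15366 had 18 and 0 reads in the controls and 34 and 15 with IL-1β. The next, circRNA.15367, had 0 reads in both controls and 16 and 11 with IL-1β, at least 5.75-fold higher, and 3.36% of tested circRNAs were read in both IL-1β libraries and neither control.

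The tankyrase genes differed in output, with Tnks2 at 380 to 587 CPM and Tnks at 70.1 to 118 CPM over the libraries. Tnks2 gave 587 and 380 CPM in the controls and 402 and 527 CPM with IL-1β, so both IL-1β values lay between the controls. The log2 change was -0.06 ± 0.28, and it was 0.33 without control 1 and 0.12 without IL-1β 1. Of its 14 tested circles 7 were above 0 and 7 below. The main circle circRNA.16574 had 336 reads in control 1, 123 in control 2 and 121 and 140 with IL-1β, and control 1 alone stood apart. Without control 1 its log2 change went from -0.49 to 0.43.

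Other Tnks2 circles differed in both directions. The circle circRNA.16571 (36862086 to 36866123, 4038 bp) stood at 20.5 and 7.37 CPM in the controls and 61.6 and 61.5 CPM with IL-1β. Both IL-1β libraries lay above both controls, 4.41-fold by the means, with a log2 change of 2.13 ± 0.74 (unadjusted p = 0.0265, adjusted p = 0.886 in edgeR). With 1 library left out the log2 change was 1.58 to 3.01, and the adjusted p was 0.123 in DESeq2. The circle circRNA.16559 (36845534 to 36854957) lay below the controls, at 52.8 and 42.0 CPM against 70.2 and 99.9 CPM, a log2 change of -0.84 ± 0.46 (adjusted p = 0.886 in edgeR). A rare circle, circRNA.16560, was absent from the reads of both controls and had 21 and 4 reads with IL-1β, at least 5.41-fold higher, or 1.63-fold from IL-1β 2 alone.

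Tnks (chromosome 8, 34829179 to 34965690, minus strand) gave 70.1 and 109 CPM in the controls and 118 and 84.8 CPM with IL-1β. The groups overlapped, and the log2 change of 0.18 ± 0.45 became -0.07 without control 1 and -0.08 without IL-1β 1. Beneath this total the circles were divided differently. The main circle circRNA.37107 (34867281 to 34873214) stood at 20.5 and 33.6 CPM in the controls and 61.6 and 38.9 CPM with IL-1β, above both controls, with a log2 change of 0.89 ± 0.65 (adjusted p = 0.886 in edgeR). The circle circRNA.37108, which has the same 3′ end and a 5′ end at 34875308, had 25 reads in control 2 and 0 in the other libraries.

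That 5′ end at 34875308 was used by 5 Tnks circles. They had 21 and 36 reads in the controls and 0 in both IL-1β libraries, at least 7.45-fold lower against 3 reads per library. Control 1 held 4 of these circles and control 2 held 2, with circRNA.37109 in both (2 and 11 reads). Of 69 ends of the 10 genes with at least 20 reads, 3 had reads in each control and none with IL-1β, and 4.09% of the 23034 such ends of the series had this pattern. The other 2 were ends of Gsk3b (38090369, 19 and 3 reads) and Tcf4 (69642883, 19 and 6 reads). The Tcf4 end was used by circRNA.15685 alone, so its reads are those given for that circle below. In the opposite direction there was 1, that of circRNA.15367 of Csnk1g3, against 2.66% of all ends. Each of these ends reached 20 reads through 1 group only, and they were singled out after their values were seen.

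Tcf7l2, the gene of the TCF factor that binds β-catenin, gave 36.7 and 29.8 CPM in the controls and 53.5 and 71.3 CPM with IL-1β. Both IL-1β libraries lay above both controls, and the means were 62.4 ± 12.6 and 33.3 ± 4.93 CPM (SD, n = 2 each). The log2 change of 0.91 ± 0.60 did not pass (adjusted p = 0.882 in edgeR), and with 1 library left out it was at least 0.68. The main circle circRNA.17208 stood at 36.8 and 27.8 CPM in the controls and 45.1 and 70.7 CPM with IL-1β (43, 34, 41 and 69 reads), a log2 change of 0.84 ± 0.57. In the controls it held all reads of the gene, so the CPM of gene and circle differ there by scaling alone. The other Tcf7l2 circle had 7 reads, all in IL-1β 1.

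Tcf4, the E protein gene, gave 534 and 517 CPM in the controls and 467 and 530 CPM with IL-1β. The groups overlapped and the libraries were close, with a log2 change of -0.07 ± 0.22 (adjusted p = 1.00 in edgeR) that was 0.01 without IL-1β 1. The main circle circRNA.15683 stood at 367 and 289 CPM in the controls and 318 and 407 CPM with IL-1β, a log2 change of 0.14 ± 0.28. The longer circle circRNA.15684 stood at 124 and 180 CPM in the controls and 87.9 and 86.1 CPM with IL-1β. It lay below both controls in both IL-1β libraries, 1.75-fold by the means, with a log2 change of -0.81 ± 0.36 (adjusted p = 0.886 in edgeR), and with 1 library left out it was -1.08 to -0.51. Among rare Tcf4 circles, circRNA.15673, which joins ends 217406 bp apart, had no read in either control and 23 and 5 reads with IL-1β, at least 6.05-fold higher, or 2.04-fold from IL-1β 2 alone. In circRNA.15685 the order was opposite, with 19 and 6 reads in the controls and 0 with IL-1β, at least 3.32-fold lower, or 1.54-fold from control 2 alone, and 4.69% of tested circRNAs were read in the controls alone, in both of them.

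The next comparison was how each gene divided its reads among its circles, which does not depend on the scaling of the libraries. For the 7 genes with at least 200 reads, the share of the most read circle is given with its 95% Wilson interval, which covers counting error only. In Ctnnb1 it was 91.6% (86.8 to 94.8) and 93.1% (90.4 to 95.1) in the controls and 95.7% (92.8 to 97.4) and 85.4% (80.9 to 89.0) with IL-1β. The circle dominated in every library, and the IL-1β libraries enclosed the controls. In Tnks it was 29.3% and 32.8% in the controls and 52.8% and 46.3% with IL-1β, without overlap of the groups. In Apc it ran from 0% in IL-1β 2 (interval up to 4.32%) to 46.7% in IL-1β 1, so the libraries of a group differed by more than counting error. In Gsk3b it stayed between 20.6% and 27.0%. In Tcf4 it was 68.6% and 59.8% in the controls and 69.0% and 77.4% with IL-1β, so that control 1 and IL-1β 1 were nearly equal. Axin1 and Tnks2 ran from 47.0% to 70.3% and from 27.5% to 48.9%, with overlap of the groups. How often the groups separate in this measure over all hosts was not computed, so the separation in Tnks and Tcf4 is a description.

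**Figure D4:**
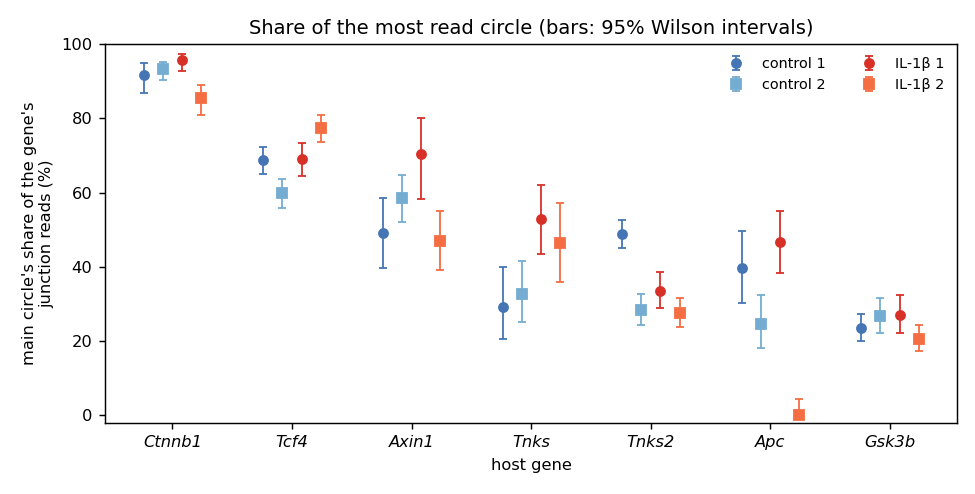
Share of each gene's junction reads held by its most read circle, in percent, for the 4 libraries, with 95% Wilson intervals for counting error. Ctnnb1 stays above 85% in every library and Apc drops to 0 in IL-1β 2. Only Tnks and Tcf4 have both IL-1β libraries above both controls, a pattern whose share over all hosts was not computed.

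Circles with a common end can be compared directly, since 1 junction end is joined to either of several others. The 10 genes held 9 pairs of circles that share an end and have at least 100 reads each, 7 of them in Gsk3b. These pairs were examined after the values were seen. In Tnks2, circRNA.16571 and circRNA.16574 start at the same 5′ end. Of the reads of the pair, circRNA.16571 held 6.67% (24 of 360) and 6.82% (9 of 132) in the controls and 31.6% (56 of 177) and 30% (60 of 200) with IL-1β. The libraries of a group differed by less than counting error and the groups differed by 24.1 percentage points, although control 1 had far more reads of the pair than control 2. An exact permutation test gave p = 0.333, the smallest possible here.

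In Tcf4, circRNA.15684 held 25.3% and 38.4% of its pair with circRNA.15683 in the controls and 21.7% and 17.5% with IL-1β. The controls differed from each other by more than the group means did. In Gsk3b, circRNA.12084 (38184435 to 38193994) held 34.7% and 29.8% of its pair with circRNA.12080 in the controls and 18.1% and 20.6% with IL-1β. Groups did not overlap in 5 of the 9 pairs, and this was so in 36.1% of the 3507 such pairs of the series. Several Gsk3b pairs have a circle in common, so the 9 pairs are not independent of each other. A gap of at least 20 percentage points without overlap was found in 1 of the 9, the Tnks2 pair, and in 8.01% of all pairs.

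**Figure D5:**
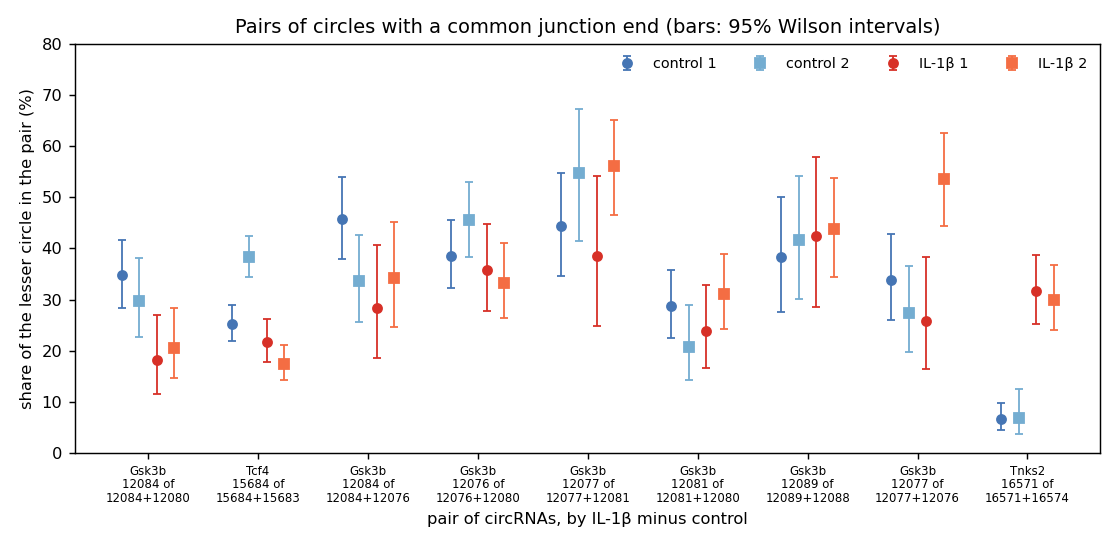
Share of the less read circle in each of the 9 pairs that share a junction end, in percent, for the 4 libraries with 95% Wilson intervals for counting error, ordered by IL-1β minus control. The Tnks2 pair at the right has both controls below 7% and both IL-1β libraries at 30% or more.

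Of 121 other genes of the pathway, a textbook list without the 10 members, 59 had junction reads and 44 had enough for the test. None passed over all hosts, 26 had a log2 change above 0 and 18 below, with a median of 0.05 against -0.03 over all hosts. Under the SRPBM depth 38.6% of the 44 were above 0, against 59.1% here and 35.8% of all hosts under that depth. Before adjustment 5 of the 44 had a p under 0.05, 2 higher and 3 lower, against 4.55% of all hosts. By role, 8 of 14 tested nuclear factors and 9 of 14 tested cytoplasmic components had a log2 change above 0, and 4 of 9 tested ligands and receptors. Over all hosts the share above 0 was 48.0%. Only 9 of 41 ligand and receptor genes and 2 of 17 genes of inhibitors at the membrane had enough reads. The most read hosts were Lrp6, the Wnt co-receptor, with 7331 reads, the casein kinase gene Csnk1g1 with 3072 and the acetyltransferase gene Crebbp, a β-catenin co-activator, with 2441.

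On the lower side of this list the lowest p belonged to Ror1, a Wnt5a receptor, at 138 and 91.1 CPM in the controls and 13.4 and 24.8 CPM with IL-1β. Ep300, the relative of Crebbp, stood at 493 and 426 CPM against 306 and 171 CPM, and the co-repressor gene Tle2 had 22 and 49 reads against 2 and 0. On the higher side Crebbp stood at 516 and 468 CPM in the controls and 682 and 714 CPM with IL-1β. Ctnna1, α-catenin, stood at 137 and 133 CPM against 231 and 209 CPM, and Btrc, the F-box protein that recognises phosphorylated β-catenin, at 24.8 and 21.9 CPM against 37.9 and 85.8 CPM. The adjusted p was 0.882 in edgeR for each of these 6. In each of them the groups did not overlap, which held for 17.0% of all hosts on the higher side and 18.9% on the lower. The 6 were chosen for their low p, which favours this pattern, so it is no separate result.

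The hosts most like Tcf4, the gene with the most reads among the 10, were Deptor, Nadk and Galnt7, by Pearson correlation of log2 CPM over the 4 libraries (0.999, 0.998 and 0.997). With 4 points this is a description, and 56 of the 2208 hosts with at least 200 reads had a correlation above 0.95.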

How the data were processed

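The authors deposited raw counts of back-splice junction reads, per the file headers. Beside each count the deposited table gives an SRPBM signal. The SRPBM depth of a library was taken as its summed counts over its summed SRPBM. It was 11.8 and 16.1 in control 1 and 2, and 11.9 and 13.4 in IL-1β 1 and 2. Whether this ratio is the same for every circRNA was not tested. Per the labels' protocols, libraries were strand-specific and made from RNA depleted of ribosomal RNA and digested with RNase R. The submitters' processing notes name mm10 and Bowtie2, while the tool that called circRNAs is not given in the sources used here. In the labels the control samples carry the treatment text of the others, so groups follow the source label.

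Genes were placed by RefSeq spans (GRCm38.p6). For all other circles the host was the only coding gene spanning both ends, or the only gene of another kind where no coding gene did. CircRNAs or hosts with at least 20 reads were tested with the quasi-likelihood test of edgeR 4.0.16 under R 4.3.3 (TMM, no covariate, Benjamini-Hochberg over all). SE was taken as log2 change over the square root of the F statistic. Other values used Python 3.11.15 and scipy 1.17.1, and DESeq2 1.42.0 was an alternative. The fits were tested on simulated counts. The members and lists were chosen with earlier results of these data known. Circles named are the most read of each gene, those with at least 200 reads, and the 4 with the lowest p in each direction. Circles named as neighbours of these, and pairs and ends, were chosen after their values were seen. Of the other pathway genes, the 3 with the lowest p in each direction and the 3 with the most reads are named.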

Additional observations from a re-analysis of the deposited data

How the results depend on the processing

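No call of a member gene or circle appeared under any of the alternatives run, so the limits concern directions and the counts over all features. Over all circRNAs, edgeR made 3 calls, and 61 with the replicate block, 61 with no filter on reads, 106 in DESeq2, 0 with at least 50 reads, 0 with junctions within 5 nt summed, and 0 to 4 with 1 library left out. Over all hosts it made 0 calls, and 20 with the replicate block, 12 with no filter, 55 in DESeq2 and 0 to 2 with 1 library left out. The labels do not state whether libraries with the same replicate number are paired. The deviations of same-numbered libraries from their group means had a correlation of -0.03 over 3100 circRNAs and 0.03 over 2209 hosts. With 4 libraries this cannot settle the question. The block made 0 calls among the members. Under the SRPBM depth 38.6% of the tested hosts of the wider list were higher, against 59.1%.

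Some directions turned. Under the SRPBM depth the log2 change was -0.11 for Gsk3b, -0.19 for circRNA.12080, -0.016 for circRNA.15065 and -0.11 for circRNA.15683, and with the replicate block it was -1.54 for circRNA.15065. With 1 library left out, the log2 change ranged from -0.21 to 1.02 for Ctnnb1, -0.21 to 0.57 for Apc, -0.997 to 0.36 for Axin1, -0.25 to 0.51 for Gsk3b, -0.082 to 0.53 for Tnks, -0.34 to 0.33 for Tnks2 and -0.17 to 0.013 for Tcf4. For circles it ranged from -0.15 to 0.32 (circRNA.12080), -0.84 to 0.49 (circRNA.12919), -8.09 to 1.17 (circRNA.15065, at 0 in IL-1β 2), -0.066 to 0.30 (circRNA.15683), -1.06 to 0.43 (circRNA.16574) and -0.24 to 0.99 (circRNA.38734). The cause was not tested. Where 1 library was left out of a group, the remaining one is assumed to vary like the other group. In all, 312 of 336 values of single genes and circles kept their direction and, where an adjusted p was given, their side of the threshold. Settings in which a gene or circle fell below the read filter are not among the 336. At 895774 to 1203855 junction reads per library most member circles had too few reads to test: 74 of 125 were under 20 reads.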
